A study of Mus musculus with 4 samples.

Results

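Genes of cholesterol synthesis, uptake, storage and transport were compared between sorted interstitial cells of the mouse testis. The set held 44 genes listed by their role in the pathway, each matched by symbol to 1 of the 22802 rows of the table. Of these, 41 were among the 12348 rows tested. The cells came from C57BL/6J mice that carried mFLE-Cre together with CAG-CAT-EGFP, a reporter that makes EGFP after Cre recombinase has acted, so the reporter and driver were shared by both groups. Testes were dispersed at postnatal day 10, and cells expressing EGFP were sorted by laminin staining into 2 laminin-negative and 2 laminin-positive samples. According to the design text EGFP was weak in the laminin-negative cells, although the sample labels call both populations positive, so EGFP level and laminin staining cannot be told apart. Which cells the mFLE driver acts in, and whether the samples of a group came from separate animals, is not stated in the labels. The p-values therefore cover the variation among these 4 samples alone, and it may be technical.

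Cholesterol is built from acetyl-CoA. Units made from mevalonate are joined into squalene, which is closed into a ring and trimmed to cholesterol in the endoplasmic reticulum. The SREBP transcription factors switch these enzymes on when membrane cholesterol is low, while INSIG proteins hold SREBP and its escort SCAP back when it is high. Steroid-producing Leydig cells of the testis also take cholesterol from lipoproteins, store it as esters in droplets and carry it to mitochondria, where it becomes the starting material of androgens.

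The libraries summed to between 491475 and 548986 FPKM (fragments counted on a gene, divided by its length and by the size of the library), and 11794 to 12011 rows reached 1 FPKM. At most 29.6% of the low values of genes with a single annotated transcript lay within 0.1 of a whole multiple of the best common unit, where values with no step would give 20%, so the depth is unknown. Counting error is thus part of the spread between replicates, most of all near 1 FPKM. Leydig cell markers summed to 4870 and 4613 FPKM in the laminin-negative libraries and to 208 and 162 in the laminin-positive ones. Most of each sum came from the Insl3 row, which also names Jak3, at 4080 and 3822 against 126 and 87.0 FPKM. In laminin-positive cells 7 of 7 were lower, beside 26.3% of all tested rows, by 2.77-fold for Nr5a1 to 37.0-fold for Insl3. Smooth muscle and peritubular myoid markers summed to 205 and 190 FPKM against 5560 and 5612. Of these, 8 of 8 were higher in laminin-positive cells, beside 26.6% of all tested rows. Macrophage markers were low, at 6.88 and 4.22 against 43.97 and 37.62 FPKM in sum, with none of the 8 listed at 0 in any library. All 7 tested macrophage markers were higher in laminin-positive cells, beside 26.6% of all tested rows. However, Adgre1, Csf1r, Mrc1, C1qa and C1qb were below 1 FPKM in both laminin-negative libraries and so could enter the test only as higher. In bulk samples, fewer cells of a type and less RNA per cell cannot be told apart, and the part of these cell types in the results was not tested.

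Of the 41 tested cholesterol genes, 31 were lower and 4 higher in laminin-positive cells, and 6 did not pass the test. The test was limma on log2(FPKM + 1), with a Benjamini-Hochberg adjusted p of at most 0.05 over all tested rows. Among all tested rows 26.3% were lower and 26.6% higher, or 52.9% in either direction, against 75.6% and 9.76% of the cholesterol genes. The median log2 difference was −0.74 for the cholesterol genes and 0.01 for all tested rows. Libraries of the groups did not overlap for 36 of the 41 genes, against 77.2% of all tested rows. The 44 genes summed to 2079 and 2032 FPKM in laminin-negative libraries and to 1187 and 1154 in laminin-positive ones. As a share of all FPKM this was 0.391% and 0.370% against 0.235% in each laminin-positive library. A fit in which each gene's variance was estimated on its own called 19 lower and 3 higher.

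**Figure D1:**
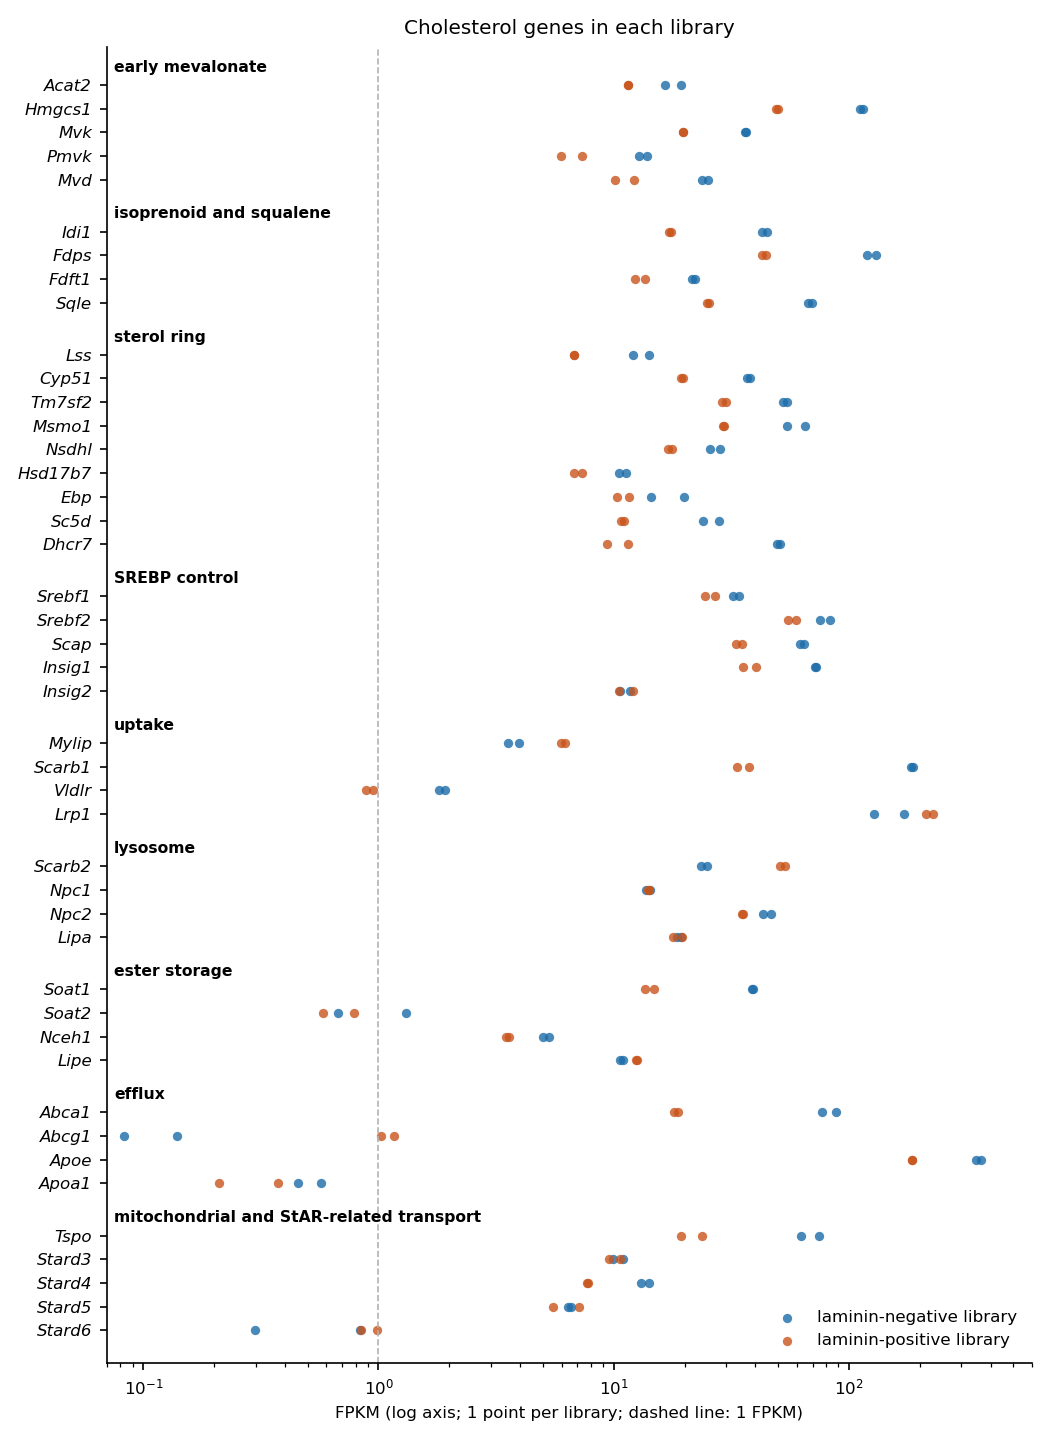
FPKM of the 44 cholesterol genes on a log axis, 1 point per library, grouped by pathway step, with laminin-negative libraries in blue and laminin-positive libraries in orange. For all 18 synthesis genes in the upper 3 groups both blue points lie to the right of both orange points. The colours overlap for Insig2, Npc1, Lipa, Soat2, Stard3 and Stard5 and lie the other way round for Scarb2, Lrp1, Mylip, Abcg1, Lipe and Stard6. Groups did not overlap for 77.2% of all tested rows.

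Every one of the 18 synthesis enzymes fell in laminin-positive cells, against a background of 26.3% of tested rows. Together they summed to 759.1 ± 22.2 FPKM in the laminin-negative group, against 339.1 ± 1.73 FPKM in the other (SD, n = 2 in each group, as throughout), a 2.24-fold difference. The median log2 difference was −0.91, and the range ran from −2.17 for Dhcr7 to −0.57 for Hsd17b7. A call with a log2 difference of −1 or below was reached by 8 of the 18, against 5.89% of all tested rows. With each gene's variance estimated on its own, 10 of the 18 kept their call in limma.

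Promoter windows of 300 bases, 250 before and 50 after each annotated start, were taken from RefSeq on GRCm38.p6 for genes matched by symbol. No window was held for Fdps, Fdft1, Sqle, Scarb1, Npc1, Soat2, Abcg1, Tspo, Stard4 or Stard6, so these genes were not searched. Windows were held for the other 34 of the 44 genes, in 46 windows. They were searched on both strands for TCACNCCAC, a form of the sterol regulatory element bound by SREBP, for CCAAT, bound by NF-Y, for the GC box GGGCGG and for AAGGTCA, a motif bound by the steroidogenic factor Nr5a1. Hmgcs1 is shown as the synthesis gene whose window matched the sterol regulatory element. Stard3, a sterol carrier of late endosomes that did not pass the test, is shown because its window held another match, and Dhcr7 and Abca1 because they were among the largest falls. Capitals mark every match to one of these motifs on either strand, and no matches overlap in these windows.
Hmgcs1, chr13:119690101-119690400, plus strand: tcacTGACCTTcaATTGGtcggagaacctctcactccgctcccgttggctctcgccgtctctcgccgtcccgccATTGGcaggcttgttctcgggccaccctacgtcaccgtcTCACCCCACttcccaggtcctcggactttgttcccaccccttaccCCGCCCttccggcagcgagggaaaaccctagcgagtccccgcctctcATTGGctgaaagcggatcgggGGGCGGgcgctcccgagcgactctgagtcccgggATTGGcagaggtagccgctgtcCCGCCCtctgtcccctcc
Stard3, chr11:98358118-98358417, plus strand: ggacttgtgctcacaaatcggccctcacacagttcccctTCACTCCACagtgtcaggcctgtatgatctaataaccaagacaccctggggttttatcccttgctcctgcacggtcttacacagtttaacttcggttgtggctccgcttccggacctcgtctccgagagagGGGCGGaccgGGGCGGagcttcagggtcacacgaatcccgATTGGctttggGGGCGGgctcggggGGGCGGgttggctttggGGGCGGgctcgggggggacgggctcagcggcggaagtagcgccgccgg
Dhcr7, the most upstream of 3 annotated starts, chr7:143822917-143823216, plus strand: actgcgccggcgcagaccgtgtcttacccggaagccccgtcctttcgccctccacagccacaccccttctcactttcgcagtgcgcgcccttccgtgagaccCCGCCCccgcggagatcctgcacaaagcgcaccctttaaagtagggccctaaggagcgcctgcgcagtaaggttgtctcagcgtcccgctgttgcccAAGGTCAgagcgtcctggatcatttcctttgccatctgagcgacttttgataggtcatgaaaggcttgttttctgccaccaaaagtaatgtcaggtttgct
Abca1, chr4:53159846-53160145, minus strand: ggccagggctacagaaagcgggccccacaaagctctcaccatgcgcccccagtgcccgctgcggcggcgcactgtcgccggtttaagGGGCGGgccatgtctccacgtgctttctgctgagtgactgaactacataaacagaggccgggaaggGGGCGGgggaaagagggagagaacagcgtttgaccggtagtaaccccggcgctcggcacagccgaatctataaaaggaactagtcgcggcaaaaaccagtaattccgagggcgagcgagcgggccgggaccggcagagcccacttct
The Hmgcs1 window held TCACCCCAC at bases 114 to 122, counted from its 5′ end, and the Stard3 window TCACTCCAC at bases 40 to 48. Those were the only matches to TCACNCCAC among the 46 windows (4.35%), against 1.24% of all 32851 promoter windows and 1.17% of the windows of tested genes. The synthesis genes had 18 windows, which belonged to 15 of the genes, and Dhcr7 had 3 of them. CCAAT was present in 14 of these windows (77.8%) and in 27 of all 46 (58.7%), against 37.4% of all windows and the same share of the windows of tested genes. GGGCGG was present in 15 of the 18 (83.3%), against 35.7% of all windows and 63.4% of the windows of tested genes. AAGGTCA occurred in the Hmgcs1 window and in the Dhcr7 window shown, which were 2 of the 46 (4.35%), against 4.72% of all windows and 3.12% of the windows of tested genes. The Dhcr7 window shown held no CCAAT. The window of its most downstream start held CCAAT and GGGCGG but no AAGGTCA, and the middle window held no match to any motif. All of these are matches of letters and not measured binding.

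The enzymes that turn acetyl-CoA into mevalonate and on to isopentenyl diphosphate were Acat2, Hmgcs1, Mvk, Pmvk and Mvd, and all 5 fell. Hmgcs1 makes HMG-CoA (chromosome 13, 119690379 to 119708260, GRCm38). It stood at 115 and 112 FPKM in the laminin-negative and at 49.2 and 50.1 FPKM in the laminin-positive libraries. The replicates nearly coincided and the groups lay far apart, by −1.17 on the log2 scale with an SE of 0.07 (limma adjusted p = 1.64e-07). Mvd, the decarboxylase that closes this stretch, was at 25.1 and 23.8 against 12.2 and 10.2 FPKM. The kinases Mvk and Pmvk were 1.84-fold and 1.998-fold higher in laminin-negative cells. Acat2, the cytosolic thiolase at the start of the pathway, differed least of the 5, at 17.9 ± 2.03 and 11.5 ± 0.0626 FPKM. Reads it shares with its close copy Acat3 may have been split between the genes.

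Isoprenoid and squalene enzymes differed by 2.62-fold in their sum, against 2.08-fold for the early and for the sterol ring enzymes, with a median log2 difference of −1.35. Farnesyl diphosphate synthase, encoded by Fdps (chromosome 3, 89093588 to 89101959), was the most abundant synthesis enzyme in laminin-negative cells, with 119.7 and 130.0 FPKM against 42.8 and 44.2. Sqle, whose product squalene epoxidase adds the first oxygen to squalene, had 67.0 and 69.5 FPKM in laminin-negative and 24.8 and 25.5 FPKM in laminin-positive libraries. The isomerase gene Idi1 had 42.8 and 45.0 against 17.5 and 17.1 FPKM. No library of one group reached the other in any of these genes, as was true of 77.2% of all tested rows. Limma adjusted p-values ran from 4.18e-08 for Fdps to 4.36e-05 for Fdft1. Fdft1, squalene synthase, fell less, from 21.9 ± 0.421 to 12.9 ± 0.897 FPKM. The exons of Fdft1 overlap those of Ctsb on the opposite strand and those of Fdps overlap Gm43738 on the same strand, so reads could be shared. The neighbouring isomerase gene Idi2 was listed at 0 in every library.

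Of the 9 enzymes that close and trim the sterol ring, Dhcr7 stood apart in size. It encodes the reductase that ends the Kandutsch-Russell branch (chromosome 7, 143823145 to 143848410) and was at 50.8 and 49.4 FPKM in laminin-negative and at 11.5 and 9.37 FPKM in laminin-positive libraries. This was a 4.80-fold difference (log2 difference −2.17 with a standard error of 0.10, limma adjusted p = 2.02e-08), larger than for any other synthesis enzyme in the set. Sc5d, the desaturase one step earlier, was at 23.8 and 28.0 against 11.1 and 10.7 FPKM. Msmo1, a methyl sterol oxidase, had 54.8 and 65.0 FPKM in laminin-negative and 29.4 and 29.0 FPKM in laminin-positive libraries. Both genes kept a wide gap between groups, though their laminin-negative replicates differed more than the laminin-positive ones.

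Lanosterol synthase (Lss), the demethylase Cyp51 and the sterol reductase Tm7sf2 were 1.93-fold, 1.92-fold and 1.81-fold lower in laminin-positive cells. The row of Tm7sf2 also names Vps51, a vesicle tethering gene, so its value belongs to both. Nsdhl, Hsd17b7 and Ebp, which act on the methyl groups and double bonds of the ring, differed least, by 1.56-fold, 1.55-fold and 1.56-fold. Ebp had the widest spread, at 17.1 ± 3.83 and 10.98 ± 0.963 FPKM (limma adjusted p = 0.00371). Acat2, Pmvk, Mvd, Lss, Msmo1, Nsdhl, Hsd17b7 and Ebp were the 8 synthesis genes that lost their call with unshared variances, at limma adjusted p between 0.0563 for Nsdhl and 0.217 for Ebp.

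**Figure D2:**
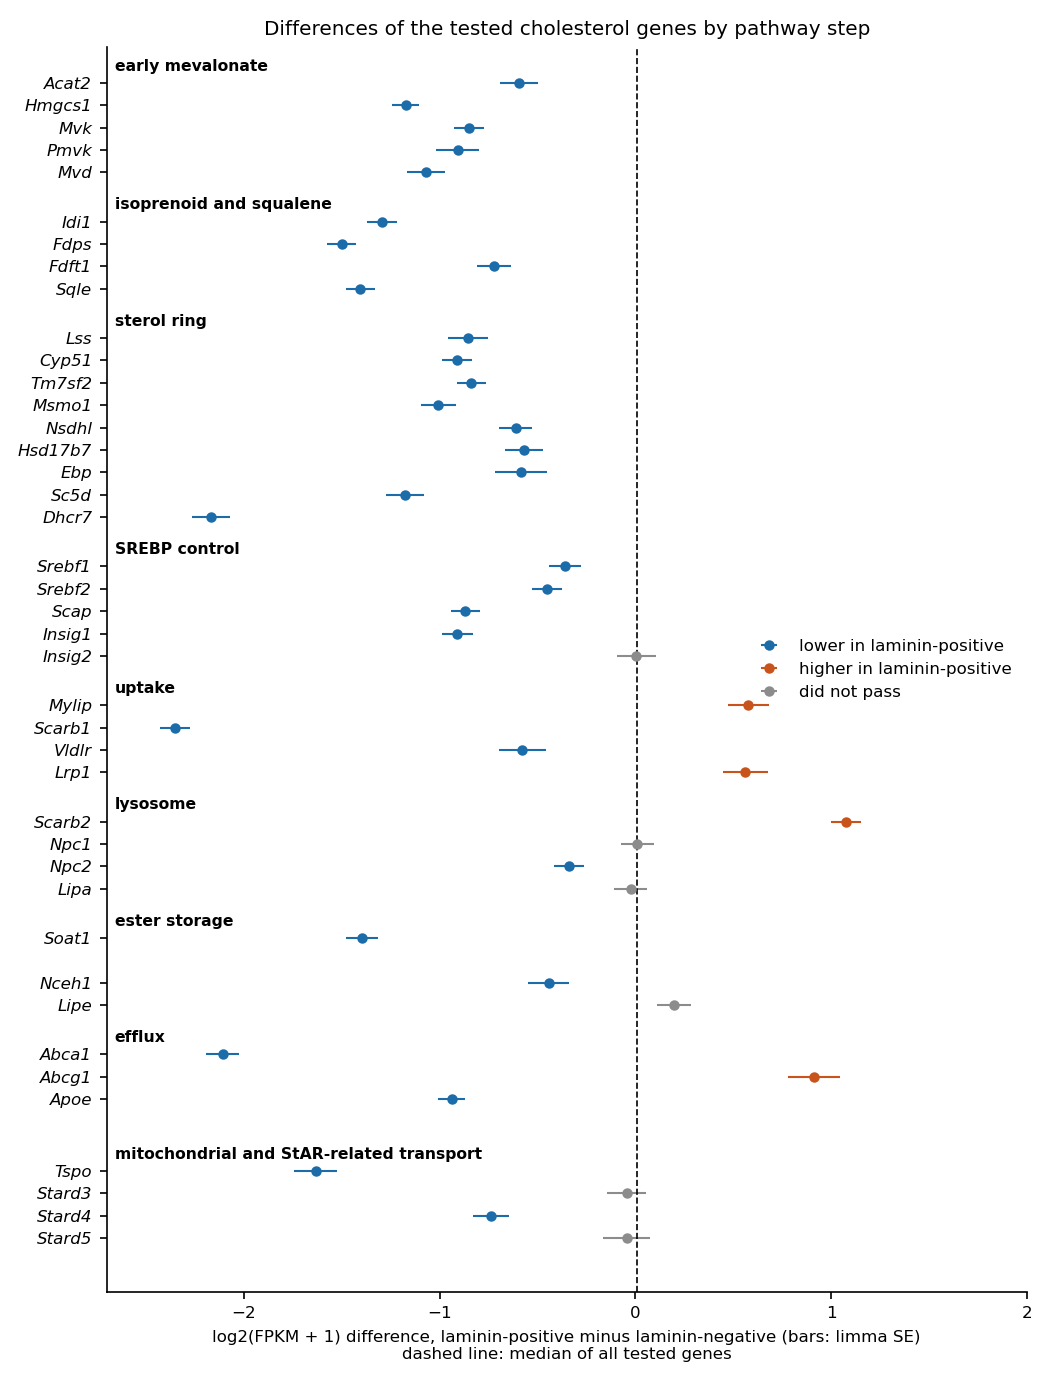
Difference in log2(FPKM + 1) of the 41 tested cholesterol genes, laminin-positive minus laminin-negative, in pathway order, with limma standard errors as bars and the median of all tested rows as a dashed line. The 18 synthesis genes all lie left of the line, between −2.17 and −0.57. In contrast, the uptake, lysosome, ester storage and efflux genes lie on both sides.

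Of 5 genes that control the pathway 4 were lower in laminin-positive cells, at a median log2 difference of −0.45. The share called was 80.0%, beside 52.9% of all tested rows in either direction and 26.3% lower. Insig1, which retains SREBP in the endoplasmic reticulum and is itself an SREBP target, fell from 72.0 ± 0.669 to 38.0 ± 3.41 FPKM. The escort gene Scap fell from 63.1 ± 1.56 to 34.2 ± 1.30 FPKM. Srebf2, the factor chiefly tied to cholesterol synthesis, fell from 78.9 ± 5.39 to 57.4 ± 2.94 FPKM and Srebf1, tied to fatty acid synthesis, from 33.2 ± 1.35 to 25.6 ± 1.72 FPKM. The calls of Srebf1 and Srebf2 were lost with unshared variances, at limma adjusted p = 0.107 and 0.0944. Exons of Srebf1 also overlap Rai1 on the opposite strand. Insig2, the second INSIG gene, had 10.7 and 11.8 FPKM in laminin-negative and 10.5 and 12.0 FPKM in laminin-positive libraries, which overlapped (limma adjusted p = 0.970).

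Ratios of 2 genes within a library do not depend on scaling between libraries, and the pairs were chosen after their values were seen. Insig1 exceeded Insig2 by 6.80 and 6.09 times in laminin-negative libraries and by 3.85 and 2.96 times in laminin-positive ones. The ratio of Srebf2 to Srebf1 was 2.42 and 2.33 against 2.22 and 2.27, the smallest shift of the pairs examined. Dhcr7 relative to Hmgcs1 was 0.443 and 0.442 in laminin-negative and 0.234 and 0.187 in laminin-positive libraries and was thus lower in both laminin-positive libraries. No shift of a ratio was tested. With 2 libraries against 2 an exact permutation test cannot go below p = 0.333, and none was used.

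**Figure D3:**
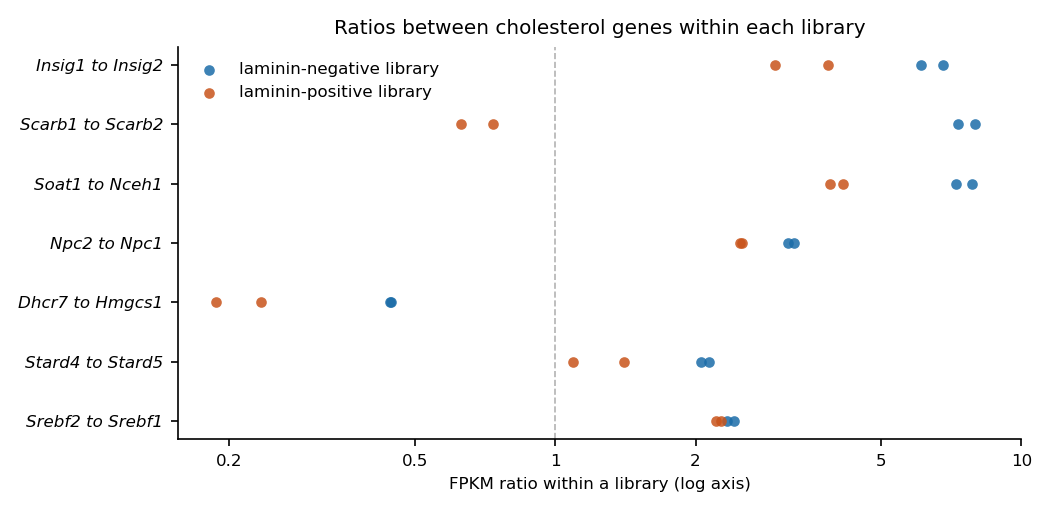
Ratio of FPKM between 2 cholesterol genes within each library, on a log axis, with laminin-negative libraries in blue and laminin-positive libraries in orange. The ratio of Scarb1 to Scarb2 moves from 7.96 and 7.33 to 0.737 and 0.627, while that of Srebf2 to Srebf1 stays between 2.22 and 2.42.

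Uptake genes went both ways, with Scarb1 and Vldlr lower and Lrp1 and Mylip higher in laminin-positive cells. All 4 were called, beside 52.9% of all tested rows. Scarb1 encodes the HDL receptor, which takes up cholesteryl esters without engulfing the particle (chromosome 5, 125277087 to 125341094). It was at 188 and 183 FPKM in laminin-negative and at 37.6 and 33.5 FPKM in laminin-positive libraries. With a log2 difference of −2.35 (SE 0.08) and a limma adjusted p of 1.75e-09, this was the largest fall among the 41 tested cholesterol genes and lay at percentile 1.19 of all tested rows. By level it moved from the second place among the 44 genes in laminin-negative cells to the eighth in laminin-positive cells. Vldlr, the very low density lipoprotein receptor, was at 1.86 ± 0.0760 and 0.918 ± 0.0416 FPKM and passed the filter on low values through its laminin-negative libraries alone, so its difference was bound to be a fall.

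Lrp1, a large endocytic receptor with many ligands, was the most abundant of the 44 genes in laminin-positive cells. It was at 172 and 128 FPKM in laminin-negative and at 227 and 212 FPKM in laminin-positive libraries, a log2 difference of 0.56 with an SE of 0.12 (limma adjusted p = 0.00215). The laminin-negative replicates lay far apart from each other, and the call was lost with unshared variances (limma adjusted p = 0.207). Mylip, a ubiquitin ligase that marks lipoprotein receptors for breakdown, was at 3.76 ± 0.267 and 6.10 ± 0.196 FPKM, and its call was likewise lost (limma adjusted p = 0.0535).

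Among the 4 lysosomal genes 1 rose, 1 fell and 2 did not pass, so 2 of 4 were called, beside 52.9% of all tested rows. Scarb2, which encodes a lysosomal membrane protein of the same family as Scarb1 (chromosome 5, 92441314 to 92506833), had 23.6 and 25.0 FPKM in laminin-negative and 51.0 and 53.5 FPKM in laminin-positive libraries. Of all tested rows, 7.29% were called with a log2 difference of 1 or above. Scarb2 had the largest rise of the 41 genes, with a log2 difference of 1.08, an SE of 0.08 and a limma adjusted p of 6.94e-07. The ratio of Scarb1 to Scarb2 was therefore 11.2-fold higher in laminin-negative cells. Npc2, the soluble partner in cholesterol export from lysosomes, was at 46.6 and 43.1 against 35.2 and 35.3 FPKM (limma adjusted p = 0.00345), a call lost with unshared variances (0.0783). Npc1, its membrane partner, was at 13.97 ± 0.437 and 14.08 ± 0.0923 FPKM, and the acid lipase gene Lipa at 18.9 ± 0.548 and 18.6 ± 1.19 FPKM. Limma adjusted p-values for these 2 genes were 0.924 and 0.840, and exons of Npc1 overlap Rmc1 on the opposite strand.

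Cholesterol is stored as esters by the acyltransferases Soat1 and Soat2 and released by the hydrolases Nceh1 and Lipe. Soat1 (chromosome 1, 156424525 to 156474331) had 38.7 and 39.2 FPKM in laminin-negative and 13.5 and 14.8 FPKM in laminin-positive libraries, 2.75-fold apart, or −1.40 in log2 with an SE of 0.08 (limma adjusted p = 1.42e-07). Nceh1 fell from 5.16 ± 0.242 to 3.53 ± 0.0626 FPKM. The ratio of Soat1 to Nceh1 within libraries was 7.26 and 7.86 in laminin-negative and 3.89 and 4.14 in laminin-positive cells. Lipe, hormone-sensitive lipase, had 10.8 ± 0.203 and 12.5 ± 0.0300 FPKM and did not pass (limma adjusted p = 0.0768), though it passed with equal FPKM sums and with unshared variances. The locus given for Lipe spanned 189599 bases, beside 19184 for the gene. That locus was shared with the rows of 4732471J01Rik, Cxcl17, Ceacam1 and Ceacam2. Exons of Lipe overlap 4732471J01Rik on the opposite strand, so reads could be shared. Soat2 was below the filter, at 1.31 and 0.671 FPKM in laminin-negative and 0.785 and 0.581 FPKM in laminin-positive libraries.

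Efflux genes were split between a large fall of Abca1 and a rise of Abcg1 from a very low level. Abca1, which loads cholesterol onto lipid-poor apolipoproteins (chromosome 4, 53030787 to 53159895), was at 88.3 and 77.1 FPKM in laminin-negative and at 18.7 and 17.99 FPKM in laminin-positive libraries. The 4.50-fold difference, −2.11 in log2 with an SE of 0.08 (limma adjusted p = 8.09e-09), took it from the sixth to the nineteenth place by level among the 44 genes. Abcg1, which passes cholesterol to HDL, was at 0.1397 and 0.0830 against 1.17 and 1.02 FPKM, a log2 difference of 0.91 with an SE of 0.13 (limma adjusted p = 1.71e-04). It passed the filter through its laminin-positive libraries alone, so its difference was bound to be a rise, and its ratio is uncertain at such levels. Macrophage markers moved with it, in sums of 43.97 and 37.62 FPKM in laminin-positive and 6.88 and 4.22 in laminin-negative libraries, and their part in the rise was not tested.

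Apoe, the apolipoprotein that carries lipids out of and between cells, was the most abundant of the 44 genes in laminin-negative cells. It was at 364 and 348 FPKM there and at 185 FPKM in each laminin-positive library, a 1.92-fold difference (limma adjusted p = 1.08e-06). Apoa1, the main protein of HDL, was below the filter, at 0.513 ± 0.0807 and 0.292 ± 0.115 FPKM.

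Of 4 tested carriers to mitochondria and between membranes, 2 were lower and 2 did not pass. The 2 of 4 called are near the 52.9% of all tested rows. Tspo, an outer mitochondrial membrane protein that binds cholesterol (chromosome 15, 83563592 to 83574203), was at 62.8 and 74.7 FPKM in laminin-negative and at 23.7 and 19.3 FPKM in laminin-positive libraries, a log2 difference of −1.63 with an SE of 0.11 (limma adjusted p = 4.74e-07). The groups lay far apart, but the spread within each was wide, and the call was lost with unshared variances (0.0558). Stard4, a soluble sterol carrier, fell from 13.6 ± 0.685 to 7.73 ± 0.0154 FPKM. Stard3, a sterol-binding protein of late endosomes, was at 10.5 ± 0.758 and 10.1 ± 0.776 FPKM, and Stard5 at 6.47 ± 0.152 and 6.29 ± 1.12 FPKM. Neither passed, at limma adjusted p = 0.730 and 0.785. Stard6, known from germ cells, did not reach the filter. It had 0.297 and 0.836 FPKM in laminin-negative and 0.844 and 0.988 FPKM in laminin-positive libraries. Tspo overlaps Mcat, Cyp51 overlaps Akap9 and Stard5 overlaps Il16 by exons on the opposite strand, a limit of the same kind as for Fdft1.

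Further genes of the pathway were listed by function, and those named are among the largest called differences of each list or went against it. Of 11 other tested cholesterol synthesis genes, 9 were lower, 1 higher and 1 did not pass, with a median log2 difference of −0.74. The share called was 90.9%, beside 52.9% of all tested rows. The electron donor gene Por fell from 52.3 ± 1.11 to 22.3 ± 0.587 FPKM and the haem-binding gene Pgrmc1 from 874 ± 42.4 to 372 ± 4.40 FPKM. Lbr went the other way, from 14.03 ± 0.0917 to 21.5 ± 0.417 FPKM. It encodes a nuclear membrane protein with the same sterol reductase activity as Tm7sf2.

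Of 10 genes in branches that draw on farnesyl diphosphate for other products, 1 was lower, 2 were higher and 7 did not pass, with a median log2 difference of −0.05. The share called was 30.0%, beside 52.9% of all tested rows, and this difference was not tested. The called genes were Pdss1, a subunit of the enzyme making the ubiquinone side chain, and Ggps1 and Nus1, which serve geranylgeranyl and dolichol synthesis. Their log2 differences were −0.35, 0.32 and 0.32, and all 3 calls were lost with unshared variances. They were also lost without laminin-negative replicate 1 (Pdss1, Ggps1) or 2 (Nus1), without laminin-positive replicate 1 (Pdss1, Nus1) and without laminin-positive replicate 2 (all 3). The highest limma adjusted p over the alternatives was 0.112 for Pdss1, 0.128 for Ggps1 and 0.126 for Nus1.

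Of 12 other regulators 4 were lower, 1 was higher and 7 did not pass, a share called of 41.7% beside 52.9% of all tested rows. Erlin1, which encodes a protein of the endoplasmic reticulum membrane, fell from 9.86 ± 0.455 to 4.72 ± 0.0859 FPKM. Its relative Erlin2 stood at 24.8 ± 1.39 and 19.6 ± 0.320 FPKM and the ubiquitin ligase gene Syvn1 at 32.1 ± 2.36 and 24.6 ± 4.19 FPKM, and limma adjusted p over the alternatives reached 0.0874 and 0.271. The call of Syvn1 was lost without laminin-negative replicate 1 and without laminin-positive replicate 2. Rxrb was the gene called higher, at 18.6 ± 2.80 and 22.9 ± 0.323 FPKM, with limma adjusted p from 0.00387 to 0.280 among the alternatives. That call was lost without laminin-negative replicate 2 and without either laminin-positive replicate. The LXR genes Nr1h2 and Nr1h3, whose products switch on Abca1, had limma adjusted p-values of 0.730 and 0.0766 and missed the threshold, though Nr1h3 passed as lower with quantile normalization and without an intensity trend (lowest limma adjusted p = 0.0296).

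Of 8 other tested lipoprotein receptors, lipases and adaptors, 6 were lower and 1 higher. The share called was 87.5%, beside 52.9% of all tested rows. The endothelial lipase gene Lipg fell from 26.1 ± 1.004 to 7.70 ± 0.704 FPKM and lipoprotein lipase (Lpl) from 5.83 ± 0.864 to 1.27 ± 0.0323 FPKM. Cd36, a scavenger receptor, fell from 1.92 ± 0.0308 to 0.777 ± 0.285 FPKM, a call lost with unshared variances (limma adjusted p = 0.115). It passed the filter through its laminin-negative libraries alone, which fixed its direction. Sorl1 was higher, at 1.01 ± 0.257 and 1.66 ± 0.217 FPKM, with limma adjusted p from 0.0132 to 0.208 among the alternatives, and lost its call without replicate 2 of either group.

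Of 14 tested intracellular sterol carriers outside the set, 6 were higher, 1 was lower and 7 did not pass (median log2 difference 0.25). The 7 of 14 called are near the 52.9% of all tested rows. Of the higher genes, Osbpl8 lost its call without replicate 2 of either group and Gramd1a without laminin-positive replicate 1. Stard13 had 4.41 and 4.22 FPKM in laminin-negative and 10.5 and 10.6 FPKM in laminin-positive libraries. The sterol transfer gene Gramd1b fell from 24.8 ± 1.57 to 11.5 ± 0.0216 FPKM. Its relative Gramd1c was at 0.685 ± 0.0345 and 2.03 ± 0.0528 FPKM and passed the filter through its laminin-positive libraries alone, which fixed its direction. A list of oxysterol and ester enzymes also held transporters such as Abca7 and the phospholipid transfer gene Pltp. Of its 8 tested genes 2 were lower and 4 higher, a share called of 75.0% beside 52.9% of all tested rows. Abca7, a transporter related to Abca1, fell from 6.11 ± 0.209 to 1.28 ± 0.226 FPKM. Lcat, which esterifies cholesterol in plasma, was the other gene called lower, at 3.92 ± 0.650 and 2.89 ± 0.0975 FPKM (limma adjusted p = 0.0430, reaching 0.227 among the alternatives), and lost its call without laminin-negative replicate 1 and without either laminin-positive replicate. Ch25h, a cholesterol hydroxylase, had 1.29 and 1.51 FPKM in laminin-negative and 4.64 and 2.07 FPKM in laminin-positive libraries, and its call was lost without replicate 1 of either group. The phospholipid transfer gene Pltp was at 215 ± 11.2 and 289 ± 5.53 FPKM, a call lost with unshared variances (limma adjusted p = 0.0647).

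Fatty acid genes known as SREBP1 targets were lower in 8 of 10 cases and higher in 1, with a median log2 difference of −0.61. The share called was 90.0%, beside 52.9% of all tested rows. The malic enzyme gene Me1 fell from 333 ± 27.3 to 58.6 ± 0.540 FPKM and the desaturase gene Fads2 from 251 ± 8.17 to 48.8 ± 3.18 FPKM. Scd1, another desaturase, fell from 11.6 ± 0.534 to 3.75 ± 0.543 FPKM. Acss2, which makes acetyl-CoA from acetate, rose from 4.03 ± 0.221 to 7.44 ± 0.481 FPKM.

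A list of steroidogenesis genes, which also held the peptide hormone gene Insl3, the receptor gene Lhcgr and the transcription factor gene Nr5a1, was lower in 10 of 10 cases. Its median log2 difference was −3.55, against −0.91 for the synthesis enzymes. Of all tested rows, 26.3% were lower. The 10 genes include the 7 Leydig cell markers given above, and Hsd3b6 passed the filter through its laminin-negative libraries alone. Insl3, a Leydig cell hormone whose row also names Jak3, was 37.0-fold lower in laminin-positive cells. Cyp17a1, an enzyme of androgen synthesis, was 29.4-fold lower and the luteinizing hormone receptor gene Lhcgr 31.5-fold lower. Star, named after its values were seen, moves cholesterol into mitochondria and was 9.23-fold lower. The direction of the steroidogenic and synthesis genes was already known from these libraries and is not independent evidence.

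**Figure D4:**
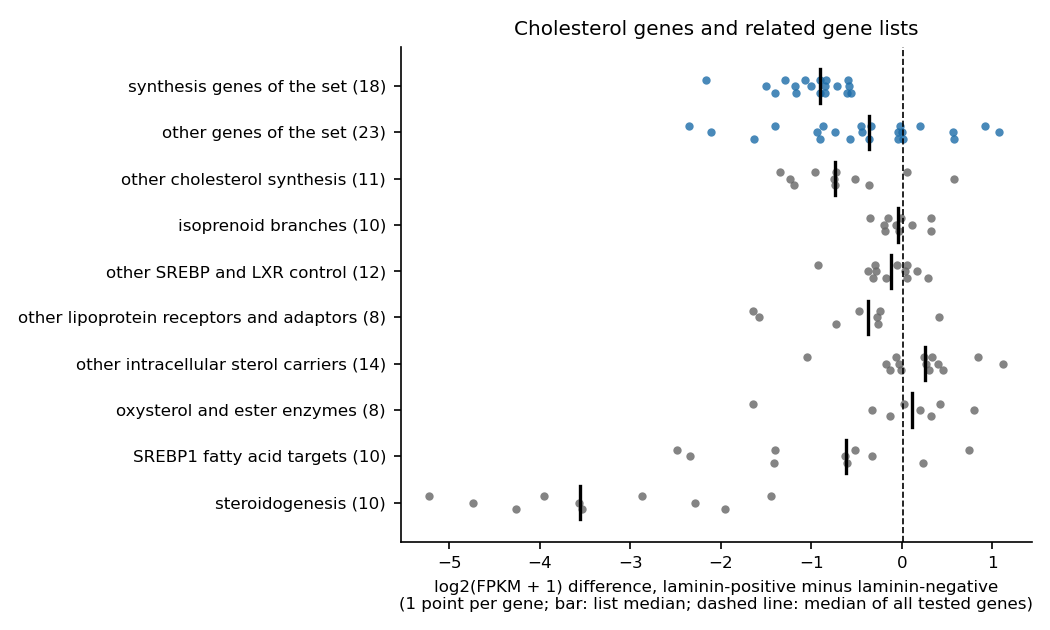
Difference in log2(FPKM + 1), laminin-positive minus laminin-negative, for each tested gene of the set of 44 (blue) and of related lists (grey), with the number of genes in brackets, list medians as bars and the median of all tested rows as a dashed line. Synthesis genes lie around −0.91 and steroidogenesis genes around −3.55, while isoprenoid branch genes lie around −0.05.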

How the data were processed

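RNA of 2 laminin-negative and 2 laminin-positive samples was compared. Values were deposited as FPKM per library, per the file headers. TopHat2 2.1.1 and Cufflinks 2.2.1 appear in the submitters' processing notes, with no role stated. Per the labels' protocols, libraries were made with a directional NEBNext kit. Genome build, annotation, use of strand and scaling across libraries were not given in the sources used here. Of 21201 rows with a unique symbol, 99.6% overlapped the GENCODE M21 gene of that symbol, so GRCm38 coordinates from that annotation are given.

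Rows with at least 1 FPKM in at least 2 libraries were kept, which left 12348. They were tested as log2(FPKM + 1), a scale that understates changes of low genes, with limma 3.58.1 in R 4.3.3 (intensity trend, two-sided, no replicate block). Residual degrees of freedom were 2, and the median of the prior ones was 8.21. P-values were Benjamini-Hochberg adjusted over all tested rows at 0.05. The procedure was also run on simulated data in which far fewer rows changed than were called here, so that run cannot vouch for these calls. Fold values are ratios of mean FPKM. A list is described by its counts and median, with no set test. All 44 genes are named by step, with values per library for calls of at least 1 in absolute log2 difference and for any gene that alone goes its way in its step. Of the other lists, up to 3 genes with the largest called differences, and any called against the majority of their list, are named, with exceptions marked where they occur; a few genes of these lists are not reported here.

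Members and lists were chosen with earlier results of these data known. The lists outside the set held 138 genes in 15 lists, including Sertoli cell, germ cell, endothelial and erythroid markers. Over all tested rows 26.3% were lower and 26.6% higher, or 52.9% in either direction. Of the tested markers, 4 of 6 Sertoli cell genes were higher, 6 of 7 germ cell genes were higher and 1 (Kit) lower, and 2 of 3 endothelial genes were lower and 1 higher. Of these, Amh, Dhh, Ddx4, Stra8 and Emcn passed the filter through laminin-positive libraries alone and Tek through laminin-negative ones alone, which fixed their direction. No erythroid gene passed the filter. Replicates of a group shared an identical value above 0 in 0 and 1 rows, so none was treated as a repeat. Alternatives were another pseudocount, filter, scaling or variance model, a replicate block and leaving out each library.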

Additional observations from a re-analysis of the deposited data

How the results depend on the processing

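Of 13 alternatives, 11 changed no call among the 41 tested cholesterol genes (38 with a filter of 5 FPKM), namely the pseudocount of 0.1, both other filters, a trimmed mean of log ratios, quantile normalization, no intensity trend, the replicate block and leaving out each library. Equal FPKM sums without Rn45s added the call of Lipe. That scaling moved the median log2 difference of all tested rows to 0.11, the synthesis median to −0.79 and the calls over all rows from 3288 higher and 3245 lower to 4255 and 2382. Small differences therefore depend on the scaling, and the signs of Insig2, Npc1, Lipa, Stard3 and Stard5, none of them called, were not the same under every scaling. With no variance shared between genes, limma called 19 cholesterol genes lower in place of 31 and, over all rows, 1346 higher and 1211 lower. That fit rests on 2 residual degrees of freedom. Leaving out each library gave 31 lower and 4 higher genes each time, with the lone sample of a group assumed to vary like the others, and over all rows 2587 to 3254 higher and 2610 to 3064 lower. With the replicate block 31 were lower and 4 higher, and 3376 and 3343 over all rows. Whether same-numbered libraries shared an animal or a preparation is not known. The correlation of their deviations across genes was 0.00809, which cannot settle this. The unknown depth limits genes near 1 FPKM (Vldlr, Abcg1, Soat2, Apoa1 and Stard6).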
